A study of Mus musculus with 3 samples.

Results

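The genes described here are 57 mouse genes of the DNA damage response and DNA repair, chosen by their function, and set against all 21938 protein-coding genes on the chromosomes. A gene was counted as having a Setd1a peak when any of its transcripts in GENCODE M21 began no more than 1000 bp from an interval of the peak list, measured from the transcription start site (TSS) to the nearer edge. By this rule 24 of the 57 genes had a peak and 33 did not. The gene listed as *Claspn* was matched to *Clspn*, the symbol of claspin in the annotation.

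The list came from CUT & RUN, in which an antibody directs a nuclease to the DNA around a protein so that the released fragments can be sequenced. It was made from cultured adult neural stem cells (NSCs) of the dentate gyrus, labelled neural progenitor cells, taken from mice aged 7 to 8 weeks that carried Hopx-CreERT2, Setd1afl/fl and H2B-GFP. All cultures carried the genotype label WT, and all were taken at day 5 in quiescence medium without EGF and with BMP4 and FGF2, each at 20 ng/ml. There were 2 libraries with an antibody to Setd1a, from independent cultures, and 1 library with rabbit IgG. The study describes adding a lentivirus for Cre-GFP or for GFP alone to such cultures before day 5, and the label WT does not say which, if any, these libraries received. Whether the IgG library entered the peak calling is not given in the sources used here.

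The deposited list held 6969 intervals, of which 6950 lay on the assembled chromosomes, and gave positions only. The authors kept the intervals found in both Setd1a libraries as 1 list, so no height, no read depth and no spread between replicates could be given for any gene, and the absence of a gene from the list is not a measurement of absent binding. A culture was read as a whole, so strong signal in few cells and weak signal in many cannot be told apart. Of 9 marker genes of NSCs, 6 had a peak (*Sox2*, *Nes*, *Gfap*, *Vim*, *Pax6* and *Id3*) and *Hopx*, *Fabp7* and *Slc1a3* had none. Peaks were found at 0 of 5 neuronal, 0 of 3 oligodendrocyte and 0 of 3 microglial markers, although a peak does not measure expression. Of all protein-coding genes 21.4% had a peak, so counts from lists this short do not establish which cell types were present. Intervals on shares below are 95% Wilson intervals and cover counting error over genes only.

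Setd1a is the catalytic subunit of a complex that methylates histone H3 at lysine 4, a mark of active gene starts, and the complex reaches CpG-rich promoters in part through a subunit that binds unmethylated CpG. DNA repair is divided among pathways that each answer one kind of lesion. Checkpoint kinases sense breaks and stalled forks and halt the cell cycle, homologous recombination copies the sister chromatid, the Fanconi proteins unhook crosslinked strands, mismatch and excision repair replace wrong or damaged bases, and end joining ligates broken ends directly. Quiescent cells have not copied their DNA and so have no sister chromatid for recombination, whereas end joining and excision repair do not need one.

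Promoter sequences of 9 of the genes are shown because they are the DNA on which the main contrasts rest. *Atr*, *Bard1*, *Msh6*, *Xpa*, *Apex1* and *Xrcc6* stand for 6 branches of repair with a peak over a TSS, and *Chek1*, *Brca2* and *Fanci* had no peak within 1000 bp. Each window of 300 bases was taken from RefSeq on GRCm38.p6 (mm10), runs 5′ to 3′ on the gene's own strand and covers 250 bases before and 50 bases after the start that RefSeq gives. Capitals mark exact matches, on either strand, to the short motifs spelled out further on, and capitals that run on without a break, as in *Msh6*, are overlapping matches.
Atr, chr9:95857347-95857646, plus strand: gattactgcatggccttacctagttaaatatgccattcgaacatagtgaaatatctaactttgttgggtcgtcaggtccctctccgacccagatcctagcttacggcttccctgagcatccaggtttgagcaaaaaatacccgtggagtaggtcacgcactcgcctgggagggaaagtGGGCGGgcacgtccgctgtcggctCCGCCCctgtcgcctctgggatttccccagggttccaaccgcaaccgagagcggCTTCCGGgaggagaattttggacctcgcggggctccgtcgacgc
Bard1, chr1:71102923-71103222, minus strand: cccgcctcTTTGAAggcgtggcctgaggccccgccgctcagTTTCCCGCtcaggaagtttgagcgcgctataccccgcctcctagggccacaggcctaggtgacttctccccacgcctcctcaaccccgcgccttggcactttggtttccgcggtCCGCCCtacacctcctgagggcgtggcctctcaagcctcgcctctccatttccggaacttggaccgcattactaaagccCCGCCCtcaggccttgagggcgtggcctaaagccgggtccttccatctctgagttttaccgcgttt
Msh6, chr17:87974800-87975099, plus strand: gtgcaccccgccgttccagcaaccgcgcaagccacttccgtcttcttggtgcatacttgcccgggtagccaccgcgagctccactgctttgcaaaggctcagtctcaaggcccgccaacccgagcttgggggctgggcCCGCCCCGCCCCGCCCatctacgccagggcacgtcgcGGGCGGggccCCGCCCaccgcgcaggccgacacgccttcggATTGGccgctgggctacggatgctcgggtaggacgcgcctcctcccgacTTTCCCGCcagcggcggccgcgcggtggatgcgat
Xpa, chr4:46196262-46196561, minus strand: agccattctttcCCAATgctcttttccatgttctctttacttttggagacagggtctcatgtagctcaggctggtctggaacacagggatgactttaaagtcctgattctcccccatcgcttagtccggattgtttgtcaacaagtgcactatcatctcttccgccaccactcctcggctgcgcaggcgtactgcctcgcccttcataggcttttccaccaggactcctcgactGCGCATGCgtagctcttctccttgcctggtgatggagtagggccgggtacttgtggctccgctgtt
Apex1, chr14:50924699-50924998, plus strand: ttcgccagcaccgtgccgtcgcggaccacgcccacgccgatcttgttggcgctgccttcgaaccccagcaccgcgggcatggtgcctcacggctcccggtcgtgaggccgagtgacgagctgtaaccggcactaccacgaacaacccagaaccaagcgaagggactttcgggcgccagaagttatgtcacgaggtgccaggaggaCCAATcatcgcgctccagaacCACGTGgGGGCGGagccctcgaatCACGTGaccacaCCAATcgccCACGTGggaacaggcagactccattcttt
Xrcc6, chr15:82016119-82016418, plus strand: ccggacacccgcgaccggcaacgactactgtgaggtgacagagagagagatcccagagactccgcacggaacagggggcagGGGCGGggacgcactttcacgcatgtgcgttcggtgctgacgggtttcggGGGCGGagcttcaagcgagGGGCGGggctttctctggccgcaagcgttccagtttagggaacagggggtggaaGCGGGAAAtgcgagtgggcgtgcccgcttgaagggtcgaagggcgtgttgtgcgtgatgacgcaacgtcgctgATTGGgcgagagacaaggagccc
Chek1, chr9:36726609-36726908, minus strand: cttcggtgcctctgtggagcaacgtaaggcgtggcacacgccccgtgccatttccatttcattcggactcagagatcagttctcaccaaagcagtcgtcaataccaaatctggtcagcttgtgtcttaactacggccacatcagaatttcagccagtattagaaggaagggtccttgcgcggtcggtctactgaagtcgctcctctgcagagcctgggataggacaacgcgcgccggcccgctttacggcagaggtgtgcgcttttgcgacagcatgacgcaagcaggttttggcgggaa
Brca2, chr5:150522371-150522670, plus strand: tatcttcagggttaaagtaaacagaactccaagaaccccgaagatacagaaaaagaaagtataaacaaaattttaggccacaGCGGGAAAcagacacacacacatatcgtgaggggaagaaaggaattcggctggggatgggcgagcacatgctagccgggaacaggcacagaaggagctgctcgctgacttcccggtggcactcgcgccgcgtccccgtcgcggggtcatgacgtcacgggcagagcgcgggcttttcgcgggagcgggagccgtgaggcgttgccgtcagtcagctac
Fanci, chr7:79392088-79392387, plus strand: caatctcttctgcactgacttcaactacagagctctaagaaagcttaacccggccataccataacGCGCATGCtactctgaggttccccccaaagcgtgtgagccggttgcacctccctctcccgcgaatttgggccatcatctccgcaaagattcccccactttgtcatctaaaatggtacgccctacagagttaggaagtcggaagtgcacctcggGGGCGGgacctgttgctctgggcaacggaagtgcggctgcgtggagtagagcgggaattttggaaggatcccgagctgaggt
The *Xpa*, *Bard1* and *Apex1* windows lay wholly inside their peaks. The peak at *Atr* covered 286 of its 300 bases, that at *Xrcc6* covered 115 and that at *Msh6* covered the last 32, since the *Msh6* peak lay mostly downstream of the start. The *Msh6* window was the richest of the 9 in CpG, with 37 CpG dinucleotides, and the *Xpa* window was the poorest, with 12. The windows of the genes without a peak lay between these, with 22 CpG dinucleotides in *Chek1*, 25 in *Brca2* and 17 in *Fanci*. The *Chek1* window held no whole match to any of the motifs searched, and a match cut by the end of a window was not counted.

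A Setd1a peak was found at 24 of the 57 genes, or 42.1% (30.2 to 55.0%), and at 4705 of the 21938 protein-coding genes, or 21.4% (20.9 to 22.0%). The peak overlapped a TSS at 19 of the 57 genes, or 33.3% (22.5 to 46.3%), against 16.4% of all protein-coding genes. The members' share thus lay above the background on both counts, but it has to be read beside the CpG content of their promoters, which is described further on. All 3 mismatch repair genes had a peak, as did both *Trp53* and *Mdm2*. Base excision and single-strand break repair followed with 4 of 7 genes, then homologous recombination with 5 of 12, end joining with 2 of 5, the checkpoint genes with 5 of 13 and nucleotide excision repair with 3 of 9. None of the 6 Fanconi genes had one. The intervals of these shares were wide and overlapped, and differences between branches were not tested.

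**Figure D1:**
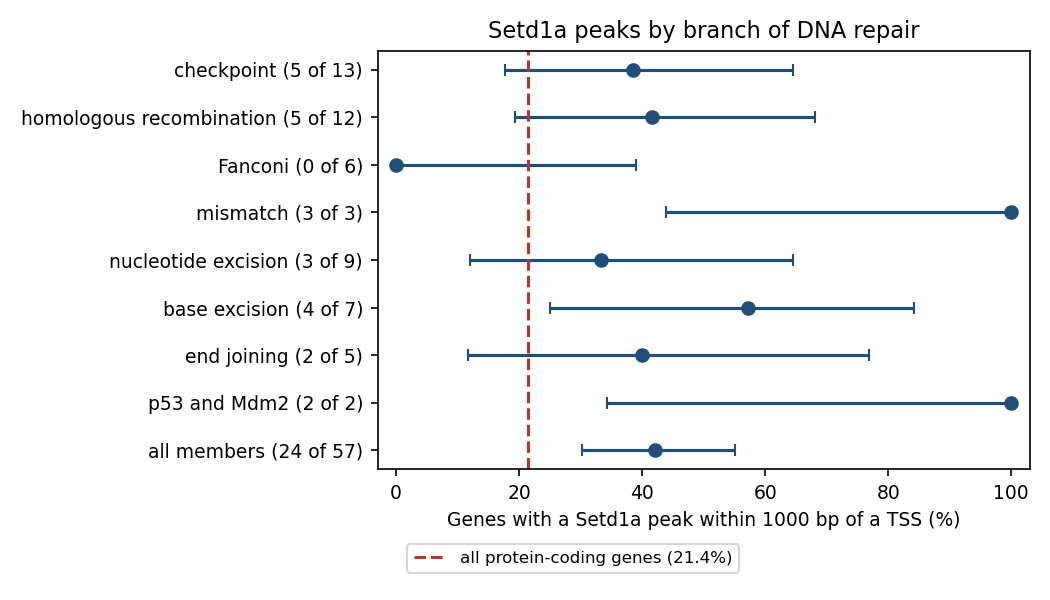
Percent of genes with a Setd1a peak within 1000 bp of a TSS in each of the 8 branches and in all 57 genes (points, with 95% Wilson intervals over genes as bars), beside the 21.4% of all protein-coding genes (dashed line). The points run from 0% for the 6 Fanconi genes to 100% for the 3 mismatch repair genes and the p53 pair, and the interval of the Fanconi genes, 0 to 39.0%, includes the dashed line.

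Among the checkpoint genes both apical kinases had a peak over a TSS. *Atr*, the kinase of stalled forks and single-stranded DNA, had a peak of 418 bp at chr9:95857215-95857632 that reached from 382 bp upstream to 35 bp downstream of the TSS. The peak of *Atm*, the kinase of double-strand breaks, was 742 bp wide at chr9:53536711-53537452 and reached from 712 bp upstream to 29 bp downstream. Both peaks lay mostly on the upstream side, where other transcripts start. The *Atm* peak also covered the start region of *Npat*, a coactivator of histone genes, whose nearest start lay 307 bp from that of *Atm* on the opposite strand. The TSS nearest the midpoint of the *Atr* peak was that of an antisense transcript, 1700065D16Rik.

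*Trp53bp1*, whose product shields broken ends from resection, had a peak of 343 bp at chr2:121271182-121271524 that also covered the first coding start. Its midpoint lay 8 bp from the nearest of 19 annotated starts, which is outside the GENCODE basic set. *Rad17*, which loads the checkpoint clamp onto DNA, had a peak of 445 bp at chr13:100651112-100651556 that ended 61 bp upstream of its TSS and lay over the start of its divergent neighbour *Ak6*. *Atrip*, the partner that brings the Atr kinase to single-stranded DNA, entered the count by a narrow margin. Its peak, chr9:109059291-109059524, was 234 bp wide, and only 0.258% of all peaks were narrower. It lay 814 bp downstream of an internal *Atrip* start that is outside the GENCODE basic set, and the nearest start to its midpoint was that of *Trex1*, an exonuclease gene.

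The other 8 checkpoint genes had no peak within 1000 bp. For *Chek1* and *Chek2*, the effector kinases of Atr and Atm, the nearest peak lay 40544 bp and 13596 bp away. The *Chek2* distance was to an internal start, and from the starts of its protein-coding transcripts it was 39638 bp, close to that of *Chek1*. None of the 3 clamp subunits loaded by *Rad17* had one, with distances of 15587 bp for *Rad1*, 28584 bp for *Rad9a* and 101784 bp for *Hus1*. *Topbp1*, the activator of Atr, lay 61567 bp from a peak. *Clspn*, the adaptor through which Atr reaches Chek1, lay 96008 bp away, and *Mdc1*, the reader of phosphorylated histone at breaks, 67657 bp away. The share of this branch, 5 of 13 genes or 38.5% (17.7 to 64.5%), had an interval that includes the background of 21.4%. When each peak was given to its nearest TSS only, *Trp53bp1* alone of the 13 kept its peak.

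In homologous recombination the peaks fell at both subunits of the Brca1 and Bard1 ubiquitin ligase. The *Brca1* peak at chr11:101551985-101553104 was 1120 bp wide, wider than 94.9% of all peaks. It ended 30 bp upstream of the *Brca1* TSS and extended 1149 bp upstream, over the start of *Nbr1*, an autophagy receptor gene whose TSS lay 270 bp away on the other strand. *Bard1*, the partner of Brca1, had a peak of 504 bp at chr1:71102719-71103222 that lay mostly downstream, from 76 bp upstream to 427 bp downstream of its TSS. No peak was near *Brca2* or *Palb2*, the recombinase loader and the protein that joins it to Brca1, for which the nearest lay 25559 bp and 9984 bp away. From the starts of their protein-coding transcripts these distances were 71503 bp and 26141 bp.

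End resection begins with the complex of Mre11, Rad50 and Nbn together with Rbbp8. Of these genes, *Nbn* had a peak of 390 bp at chr4:15957967-15958356 that began at the TSS itself and ran 389 bp downstream. *Rbbp8* had one of 396 bp on chromosome 18, but at alternative starts, where an antisense gene also starts, and the edge of this peak lay 24288 bp from the first coding start. *Rad50* lay 78241 bp and *Mre11a* 221906 bp from the nearest peak. The helicase gene *Blm*, whose product dissolves joined recombination intermediates, had a peak of 592 bp at chr7:80534854-80535445, from 326 bp upstream to 265 bp downstream of its TSS. The other RecQ helicase gene in the list, *Wrn*, lay 170513 bp from a peak. *Rad52*, which anneals single strands, lay 53604 bp away and *Rad54l*, a motor of strand exchange, 24728 bp away, or 48329 bp from its protein-coding starts.

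The Fanconi genes were the only branch with no peak within 1000 bp, and most of their distances depended on which starts were counted. *Fancm*, the translocase that recognises the stalled fork, lay 1359 bp from a peak that was nearest to the start of *Fkbp3*, and 1362 bp from it by protein-coding starts. *Fancc*, a subunit of the core ubiquitin ligase, lay 1458 bp from a peak by an internal noncoding start, and 60999 bp from one by its protein-coding starts. It was the only gene of the 33 without a promoter peak to have peaks inside its annotated span, 1 of 297 bp at chr13:63330110-63330406 and 1 of 795 bp at chr13:63336374-63337168. *Fancg*, another core subunit, lay 3169 bp from a peak near the start of *Vcp*, or 9592 bp by protein-coding starts. Thus only *Fancm* lay close to a peak whichever starts were used. The remaining core gene *Fanca* lay 15065 bp from a peak, and 55181 bp from one by its first TSS. *Fanci* and *Fancd2*, which encode the pair that the core complex ubiquitylates, lay 25302 bp and 48536 bp away, and for *Fanci* the distance was 66834 bp by protein-coding starts.

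Every mismatch repair gene of the list had a peak over an annotated TSS. *Msh6*, which recognises single mispaired bases, had a narrow peak of 261 bp at chr17:87975068-87975328, from 27 bp upstream to 233 bp downstream. Of all peaks, 8.34% were narrower. The *Msh6* start under the peak is outside the basic set, and the nearest start of a protein-coding transcript lay 6 bp from the peak. *Msh3*, which recognises larger loops, had a peak of 317 bp at chr13:92354699-92355015, from 62 bp upstream to 254 bp downstream. It was the only gene of the 57 with a second peak within 1000 bp, 294 bp at chr13:92355277-92355570. *Pms2*, the endonuclease that nicks the strand to be replaced, had a peak of 779 bp at chr5:143909467-143910245, from 497 bp upstream to 281 bp downstream. That peak spanned the starts of *Pms2* and *Aimp2*, a subunit of the tRNA synthetase complex, which lay 117 bp apart. With 3 genes the share had an interval of 43.9 to 100%.

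Nucleotide excision repair removes bulky lesions such as those left by ultraviolet light. *Xpa*, the scaffold that checks the lesion, had the widest peak of all 24 genes, 1305 bp at chr4:46195870-46197174, and 97.2% of all peaks were narrower. It reached from 863 bp upstream to 441 bp downstream. *Ercc1*, the partner subunit of the incision nuclease, had a peak of 266 bp at chr7:19345115-19345380, and its nuclease partner *Ercc4* lay 539211 bp from a peak. *Ddb2*, the damage sensor, had a peak of 898 bp at chr2:91236734-91237631, whose midpoint was nearer to the start of a noncoding gene, A330069E16Rik. Its binding partner *Ddb1* lay 2398 bp from a peak nearest to a start of its divergent neighbour *Tkfc*, outside the limit. *Xpc*, the other sensor of distorted DNA, lay 41988 bp away. The helicase genes *Ercc2* and *Ercc3* of the general transcription factor that opens the lesion lay 22240 bp and 76955 bp away, and the second nuclease gene *Ercc5* lay 28686 bp away.

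In base excision and single-strand break repair a peak lay over a TSS at 4 genes. *Ogg1*, the glycosylase that removes oxidised guanine, had a peak of 657 bp at chr6:113326506-113327162. *Apex1*, which cuts the strand at the base-free site, had a peak of 1145 bp at chr14:50924569-50925713 that also spanned the start of *Osgep*, 75 bp away on the other strand. *Parp1*, the sensor that marks strand breaks with poly(ADP-ribose), had a peak of 475 bp at chr1:180568742-180569216. *Lig3*, the ligase that seals the nick, had one of 298 bp at chr11:82781117-82781414. Their counterparts had none. *Parp2* lay 104290 bp from a peak, which was the peak at *Apex1*, and the scaffold gene *Xrcc1* lay 15058 bp and the replicative ligase gene *Lig1* 238625 bp from one.

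End joining showed a similar division within a complex. *Xrcc6*, the smaller Ku subunit, had a peak of 422 bp at chr15:82016304-82016725, and its neighbour *Desi1* started 206 bp away. The midpoint of this peak lay 0.5 bp upstream of the nearest of 12 annotated *Xrcc6* starts, which is outside the basic set. From the first coding start the peak lay 28469 bp away. *Xrcc5*, the larger subunit of the same ring, lay 23179 bp from a peak. *Prkdc*, the kinase that Ku brings to the end, had a peak of 605 bp at chr16:15637444-15638048, in the same region as the start of *Mcm4*, a subunit of the replicative helicase, 489 bp away. The ligation step had no peak, with *Lig4* 221907 bp and its partner *Xrcc4* 833334 bp from the nearest one, the latter being the farthest of all 57 genes.

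*Trp53*, which encodes p53, and *Mdm2*, the ubiquitin ligase that degrades it, both had a peak inside an intron and not over a TSS. The *Trp53* peak was 684 bp wide at chr11:69581290-69581973 and began 885 bp downstream of a *Trp53* TSS, and *Wrap53* started 104 bp away from *Trp53* on the other strand. At *Mdm2* the peak of 634 bp, chr10:117709016-117709649, began 373 bp downstream of the start of a transcript outside the basic set and 1109 bp from the first coding start. *Mdm2* is known to have a second, p53-responsive promoter in its first intron, and whether the peak coincides with it was not tested. *Trp53* and *Atrip* were the genes just inside the limit of 1000 bp, and *Fancm*, *Fancc* (by its internal start) and *Ddb1* were those just outside it.

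**Figure D2:**
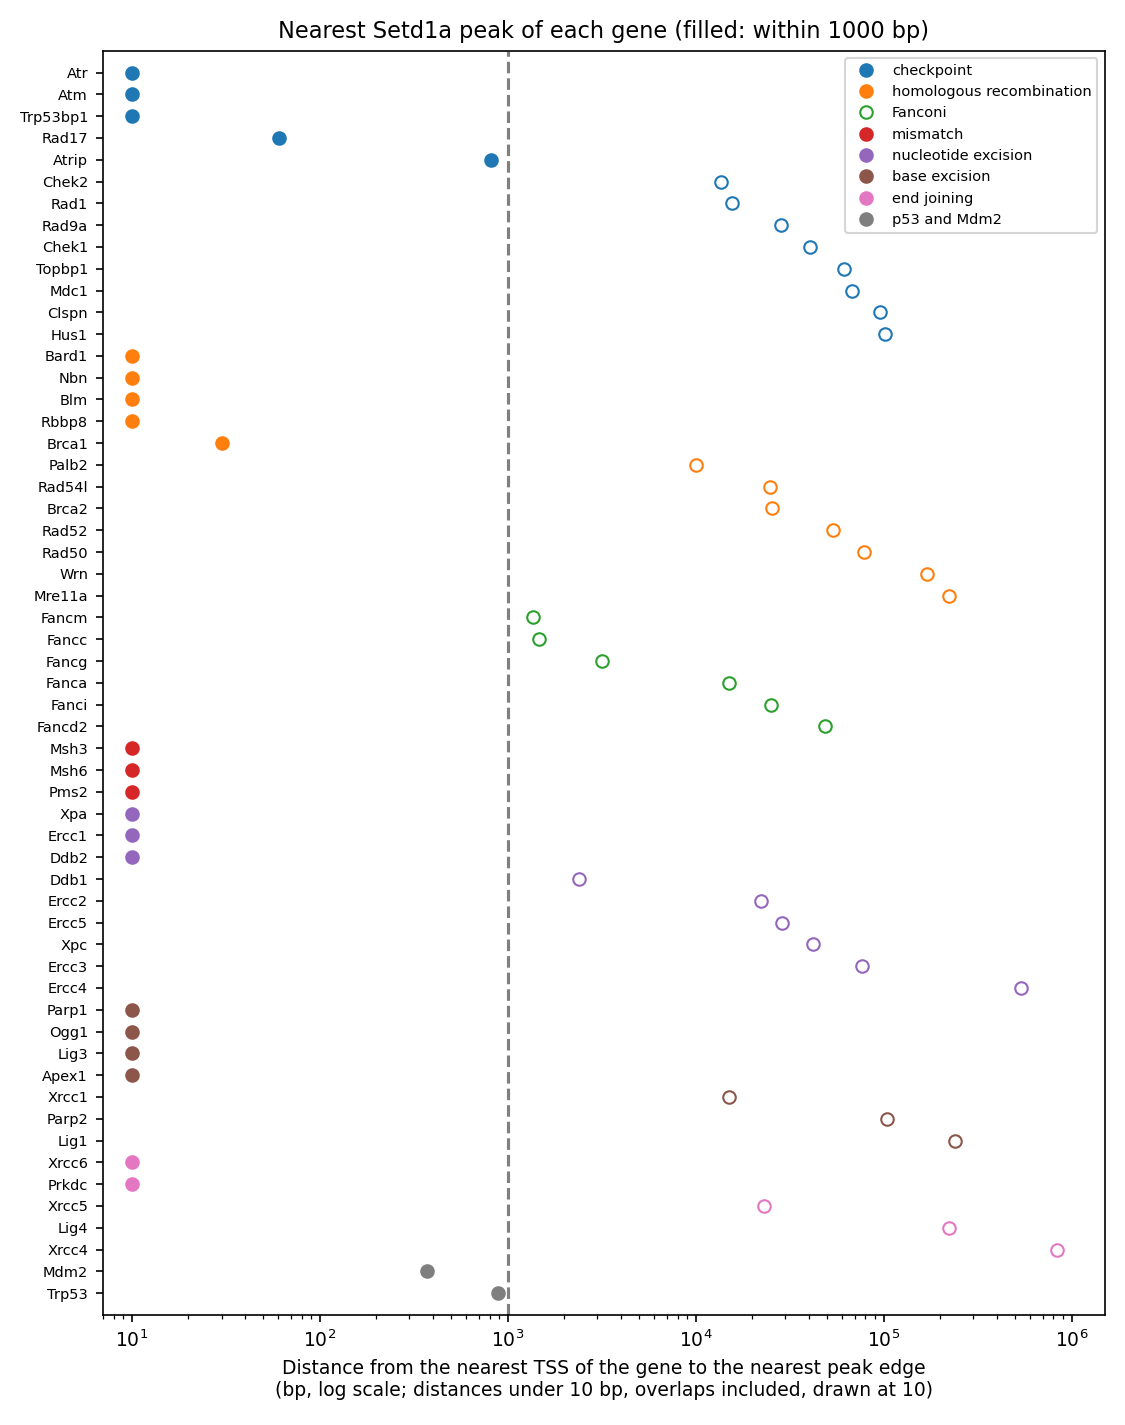
Distance in bp (log axis, with overlaps and distances under 10 bp drawn at 10) from the nearest TSS of each of the 57 genes to the edge of the nearest Setd1a peak, in the 8 branches, with filled points within 1000 bp (dashed line) and open points beyond it. The mismatch repair genes all lie at the left edge, the Fanconi genes run from 1359 bp to 48536 bp, and *Xrcc4* at 833334 bp is the farthest.

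The 33 genes without a promoter peak lay a median of 40544 bp from the nearest peak, and protein-coding genes without a peak lay a median of 99578 bp from one. A distance of over 100 kb was found for 8 of the 33, or 24.2%, against 49.9% of the protein-coding genes without a peak. Only *Fancm*, *Fancc* and *Ddb1* lay between 1 and 3 kb, or 9.09% against 1.92% of protein-coding genes without a peak. Another 14 genes lay between 10 and 50 kb, or 42.4% against 25.2%. The nearest peak was on the upstream side of 18 of the 33, a count that was not made for all protein-coding genes. With the starts of protein-coding transcripts only, the median of the 33 was 53609 bp beside 103920 bp for protein-coding genes. The distance grew by over 1.5 times under at least 1 other choice of transcripts for 8 of the 33, namely *Chek2*, *Brca2*, *Palb2*, *Rad54l*, *Fanca*, *Fancc*, *Fancg* and *Fanci*. By their median the members without a promoter peak lay nearer to a peak than such genes at large, a difference that was not tested.

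The peaks of the 24 genes had the position and width of promoter peaks in general. Their median width was 489.5 bp (quartiles 378 and 699 bp), with an order-statistic interval of 390 to 684 bp that includes the median of 546 bp for the nearest peaks of all protein-coding genes with a peak. Peaks of 1000 bp or more were found at *Brca1*, *Xpa* and *Apex1*, or 12.5% of the 24, against 11.1% of protein-coding genes with a peak. Peaks under 300 bp were found at *Atrip*, *Msh6*, *Ercc1* and *Lig3*, or 16.7% against 12.6%. Measured from the gene's TSS nearest to it, the median midpoint was at -15.5 bp, beside -13 bp for all protein-coding genes with a peak. The midpoint lay upstream in 54.2% and 54.9% of them. Of the genes with a peak, 79.2% of members and 76.3% of all protein-coding genes had it over a TSS. By annotation, 11 of the 24 peaks overlapped a coding exon, 9 an exon without coding sequence and 2 an intron, and those of *Rad17* and *Brca1* lay outside the gene. These classes were not counted for all protein-coding genes, so whether the members' split is usual is not known.

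**Figure D3:**
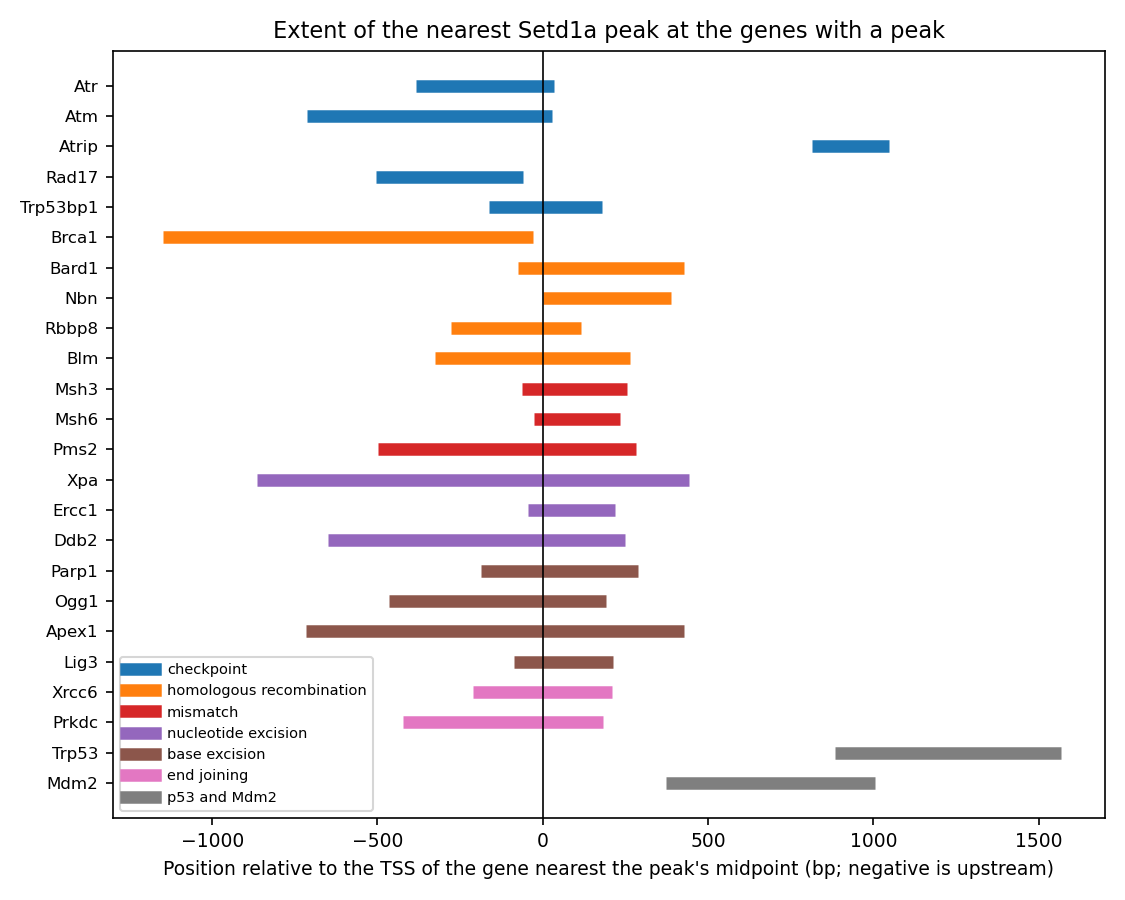
Extent of the nearest Setd1a peak at each of the 24 genes with a peak, in bp from the gene's TSS nearest the peak's midpoint (vertical line; negative values are upstream), with 1 bar per gene coloured by branch. Bars of 19 genes cross the line, those of *Rad17* and *Brca1* end upstream of it, and those of *Atrip*, *Trp53* and *Mdm2* begin downstream.

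Many of these genes share a promoter with another gene, which limits how far a peak can be given to one of them. A protein-coding gene started within 1000 bp on the opposite strand of 22 of the 57 genes, or 38.6% (27.1 to 51.6%), against 9.83% of all protein-coding genes. Of the 22 paired genes, 8 had a peak (*Atm*, *Rad17*, *Brca1*, *Pms2*, *Apex1*, *Xrcc6*, *Prkdc* and *Trp53*), or 36.4% (19.73 to 57.05%), and 51.1% of paired protein-coding genes had one. Of the 35 genes without such a partner, 16 had a peak, or 45.7% (30.5 to 61.8%), against 18.2% of unpaired protein-coding genes. Among the members the paired genes thus had the lower share, although the intervals overlapped. Pairs with close starts and no peak included *Ddb1* and *Tkfc* at 19 bp, *Lig4* and *Abhd13* at 21 bp, *Fancd2* and *Emc3* at 30 bp, *Xpc* and *Lsm3* at 40 bp and *Xrcc4* and *Tmem167* at 41 bp.

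When each peak was given to the gene whose TSS was nearest its midpoint, 15 of the 24 genes kept theirs, or 62.5%, against 81.0% of protein-coding genes with a peak. The 9 peaks that went to another gene were those of *Atr*, *Atm*, *Atrip*, *Rad17*, *Brca1*, *Rbbp8*, *Pms2*, *Ddb2* and *Ogg1*. They went to protein-coding neighbours at *Atm*, *Atrip*, *Rad17*, *Brca1* and *Pms2*, and to noncoding genes at *Atr*, *Rbbp8*, *Ddb2* and *Ogg1*. Under this stricter rule the count was 15 of 57 against 17.5% of protein-coding genes, and neither *Atr* nor *Atm* was in it.

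The promoters of these genes were rich in CpG, the dinucleotide that is dense in CpG islands. Over 500 bases on either side of the first coding TSS, the observed to expected CpG ratio had a median of 0.779 in the 57 genes and 0.561 in all protein-coding genes. It was 0.818 in the genes with a peak and 0.771 in those without. Across quintiles of this ratio, the share of protein-coding genes with a peak rose from 2.03% through 5.06%, 17.0% and 35.7% to 47.4%. In the highest quintile, 13 of the 26 members had a peak, or 50%, and in the next, 6 of 14, or 42.9%. Weighting the protein-coding genes to the members' quintiles gave a share of 34.4%, which lay within the interval of 30.2 to 55.0% around the members' 42.1%. The distance between the members and all protein-coding genes was thus smaller once genes of like CpG ratio were set side by side. *Xrcc6* and *Rbbp8* fell in low quintiles because their first coding TSS lay far from the start with the peak. When the ratio was instead taken in the RefSeq windows, found for 47 members, the order in the highest quintile was reversed. There 9 of 25 members had a peak, a share below the 45.7% of protein-coding genes. In the next quintile 7 of 11 members had one, against 37.1%, and in the middle quintile 4 of 9, against 22.9%, both above. In the quintile below that, 0 of 2 had one, against 6.03%. This window was chosen after seeing the data.

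**Figure D4:**
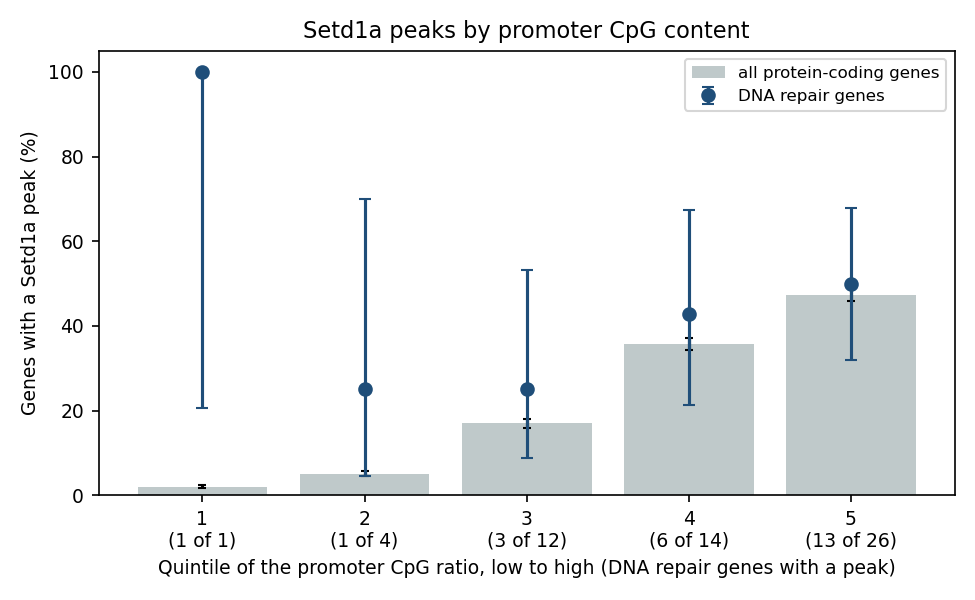
Percent of genes with a Setd1a peak in each quintile of the observed to expected CpG ratio around the first coding TSS, from low to high, for all protein-coding genes (bars) and the DNA repair genes (points, with the number with a peak of the number in the quintile), with 95% Wilson intervals over genes. The bars climb from 2.03% to 47.4%, and the points of the 2 highest quintiles, 42.9% and 50%, have intervals that include the bars.

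The number of annotated starts also differed, since a gene with more starts has more windows in which a peak can fall. The 57 genes had a median of 7 TSSs and all protein-coding genes a median of 3. Among genes with 6 or more TSSs, 15 of 38 members had a peak, or 39.5%, against 37.5% of protein-coding genes, so the shares were close in this class. Among genes with 2 to 5 TSSs it was 8 of 17, or 47.1%, against 18.7%. The part of CpG content and of the number of starts in the members' share was not tested.

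Short motifs of promoter-binding factors were counted in the RefSeq windows, which were found for 47 of the 57 genes (20 with a peak and 27 without) and for 16504 protein-coding genes. No entry was found for *Rad9a*, *Rad50*, *Nbn*, *Rbbp8*, *Wrn*, *Fancd2*, *Xpc*, *Ercc3*, *Ddb2* and *Prkdc*. All motifs were searched as exact letters on both strands. The GC box GGGCGG, bound by Sp factors, was present in 80% of the members with a peak (58.4 to 91.9%), in 51.9% of those without (34.0 to 69.3%) and in 48.0% of all windows. Among all protein-coding genes with a peak the share was 71.3%. The CCAAT box was present in 60% of the members with a peak and 51.9% of those without, against 38.8% of all windows, and the ETS motif CCGGAAG in 30% and 18.5%, against 12.3%. For all protein-coding genes with a peak the shares were 42.5% for the CCAAT box and 20.4% for CCGGAAG. The intervals of members with and without a peak overlapped for each of these motifs.

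The E2F motif TTTCCCGC, the letters by which E2F factors reach genes of S phase, stood in 7 of the 47 windows, or 14.9% (7.41 to 27.7%), against 1.51% of all windows. These were *Chek2*, *Mdc1*, *Brca2* and *Fancg* without a peak and *Bard1*, *Msh6* and *Xrcc6* with one. The share was 15% of members with a peak and 14.8% of those without, so these letters were found at like shares with and without a peak. The second E2F form, TTTGGCGC, stood in the *Msh3* window only among members, against 0.697% of all windows. The NRF1 motif GCGCATGC stood in 8 windows, or 17.0% against 3.76%. These were *Atm* and *Xpa* with a peak and *Fanci*, *Fancm*, *Parp2*, *Lig1*, *Lig4* and *Xrcc5* without one. The E-box CACGTG was found in 7 windows, or 14.9% against 8.10%, and 3 copies of it stood in the *Apex1* window shown above. The CHR element TTTGAA was found in 3 windows, or 6.38% against 15.7%, and the YY1 motif AAGATGGC in none of 47 against 3.26%. For all protein-coding genes with a peak the shares were 2.12% for TTTCCCGC, 7.10% for GCGCATGC and 11.0% for CACGTG. They were 1.30% for TTTGGCGC, 10.3% for TTTGAA and 5.75% for AAGATGGC. Windows of like CpG content were not set side by side for any motif. A match is a match of letters and not a measured site.

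**Figure D5:**
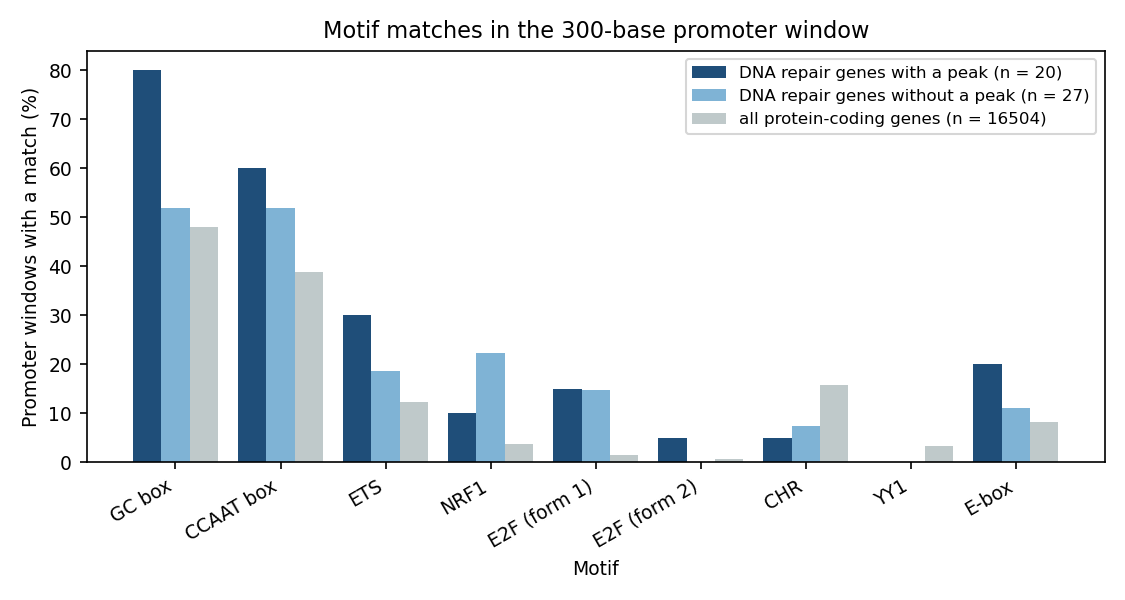
Percent of RefSeq promoter windows of 300 bases with at least 1 exact match on either strand, for each of the 9 motifs, in the 20 DNA repair genes with a Setd1a peak, the 27 without one and all 16504 protein-coding genes with a window. For the first E2F form the bars of the genes with and without a peak stand at 15% and 14.8%, both above the 1.51% of all genes.

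Beyond the 57 genes, a further list of 52 repair genes chosen by function held 17 with a peak, or 32.7% (21.5 to 46.2%), between the members' 42.1% and the background of 21.4%. Peaks lay at *Timeless* and *Tipin*, which hold the replication fork together, and at *Wee1*, the kinase that restrains mitosis, but at no other checkpoint gene of the 8 listed. *H2afx*, the histone phosphorylated around breaks, had a peak of 906 bp over its TSS. Of the 7 further recombination genes only *Xrcc2* had one. *Fance* and *Fancl* of 5 further Fanconi genes had a peak, with edges 69 bp and 21 bp from a TSS and none over it, so the absence of peaks among the 6 Fanconi genes above did not extend to the whole pathway. *Pcna*, the sliding clamp used in mismatch repair, had a peak over its TSS, and the mismatch genes *Pms1* and *Mlh3* had none.

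Among 13 further base excision genes 5 had a peak. These were the glycosylase genes *Neil1*, *Mutyh*, *Mbd4* and *Tdg*, and *Tdp1*, which frees trapped topoisomerase from DNA ends. The widest was at *Tdg*, 1169 bp with its midpoint 4 bp from the TSS. In nucleotide excision repair 3 of 10 had one, namely *Rad23b*, the partner of Xpc, *Gtf2h1*, a subunit of the transcription factor that opens the lesion, and *Ercc8*, which acts at stalled RNA polymerase. In end joining *Nhej1*, a cofactor of the ligase, was the only one of 3. Its peak of 597 bp overlapped a TSS, whereas *Lig4* and *Xrcc4*, the genes of the ligase it assists, had no peak within 1000 bp.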

How the data were processed

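The deposited data are start and end positions in bp of Setd1a CUT & RUN peaks on mm10, with no height. The authors trimmed reads, mapped them uniquely with Bowtie2, filtered them with SAMtools, called peaks with MACS2 at default settings and kept the peaks present in both replicates as 1 list. The submitters' processing notes name bcl2fastq 2.17.1.14, Trimmomatic 0.32, Bowtie2 2.1.0, SAMtools 0.1.18 and MACS2 2.2.8. How intervals of the 2 replicates were joined is not given in the sources used here. Depth per library is unknown.

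Peaks were compared with the transcripts of GENCODE M21 on GRCm38 using Python 3.11.15, numpy 2.4.6, pandas 2.3.3, scipy 1.17.1, pysam 0.24.0, samtools 1.23.1 and matplotlib 3.10.9. Distance was measured from the nearer peak edge and was 0 where a peak covered a TSS. All 57 genes were matched, 1 through an alias, and every one is named; of the wider list, the genes with a peak are named. Counts are given beside those over protein-coding genes, with no set test. The code for the distance and for the call within 1000 bp was tested on simulated peaks at genes with 1 TSS. The choice among several starts, the nearest-TSS rule and the search for partners were not tested in this way. The genes, lists and settings were chosen with earlier results of these data known. Alternatives changed the window, the transcripts used, the assignment of peaks, the minimum peak width, the partner distance and the sequence window.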

Additional observations from a re-analysis of the deposited data

How the results depend on the processing

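Of the 57 genes, 24 (42.1%) had a peak under the settings reported, and 15 (26.3%) when each peak was given to its nearest TSS only. A window of 3000 bp gave 27 (47.4%), adding *Fancc*, *Fancm* and *Ddb1*, and overlap of a TSS gave 19 (33.3%). The count was 22 (38.6%) with a window of 500 bp, 23 (40.4%) with protein-coding transcripts and 20 (35.1%) with the first TSS. It was 22 (38.6%) with basic transcripts and 20 (35.1%) with peaks of at least 300 bp. The share of all protein-coding genes, 21.4% as reported, was 23.0% within 3000 bp, 16.4% with overlap, 20.8% within 500 bp, 20.9% with protein-coding transcripts, 19.6% with the first TSS, 20.7% with basic transcripts, 17.5% with the nearest TSS only and 19.0% with peaks of at least 300 bp. The Fanconi genes had no peak under any of these except the window of 3000 bp, which gave 2. Of 456 calls of single genes under the 8 alternatives, 426 were as reported and 30 changed. Peaks of at least 300 bp also moved the nearest peak of *Fancc* to 4510 bp, of *Ddb1* to 25671 bp and of *Fancd2* to 113657 bp. Within 500 bases on either side of the first TSS, a longer window that all 57 genes have, the motif counts were 46 for GGGCGG (80.7%, against 60.4% of all protein-coding genes), 28 for CCGGAAG (49.1% against 19.2%), 13 for TTTCCCGC (22.8% against 3.56%), 5 for TTTGGCGC (8.77% against 1.60%), 10 for GCGCATGC (17.5% against 5.56%) and 15 for CACGTG (26.3% against 17.1%). For CCAAT the count was 39 (68.4% against 70.7%), for TTTGAA 24 (42.1% against 44.7%) and for AAGATGGC 5 (8.77% against 7.53%), so CCAAT was no longer above the share of all genes and AAGATGGC no longer below it. Chosen after seeing the data, the RefSeq window gave a CpG-weighted share of 37.7% in place of 34.4%, leaving out genes reached only through transcripts outside the basic set left 22 genes with a peak, and leaving out genes with a divergent partner left 16. No paired analysis was possible because both replicates were deposited as 1 list, and for the same reason no replicate could be left out. Without read depth or peak heights, a gene absent from the list cannot be told apart from one with too few reads.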
